A study of Homo sapiens with 9 samples.

Results

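Expression of 34 genes of glycolysis, gluconeogenesis and the steps that feed them was examined in Huh-7 human hepatoma cells with and without APOB or MTTP. The 34 genes are named enzymes, glucose transporters and regulatory kinases of these pathways, taken without a threshold on any measured value. They were chosen with earlier results of these data known, and each matched 1 of the 58735 genes in the files. Poly-A-selected RNA of 9 libraries was sequenced, 3 libraries from each of 3 groups. The control group was wild-type Huh-7 cells. Ako-3 is a single Huh-7 clone in which APOB, the gene of the structural protein of very low density lipoprotein, was knocked out with Cas9 and gRNAs, and Mko-3 is a single Huh-7 clone in which MTTP, the gene of the protein that loads lipid onto apoB, was knocked out. All cells were grown in medium with serum and kept overnight in medium without serum before RNA was taken. Because each knockout is represented by 1 clone, an effect of the missing gene and a difference between clones cannot be told apart. The labels call the 3 libraries of a group biological replicates and do not say whether they came from separate cultures, so the p-values measure the spread between these libraries.

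Glycolysis splits glucose into pyruvate in the cytosol, and lactate dehydrogenase, pyruvate kinase and phosphofructokinase exist as isoforms that differ between tissues. The healthy liver also runs the route backwards, through phosphoenolpyruvate carboxykinase, fructose bisphosphatase and glucose phosphatase, and releases glucose to the blood. Hepatoma cells are known to carry a mixture of liver isoforms and of those of growing cells, such as the muscle-type pyruvate kinase gene PKM beside the liver and red cell gene PKLR.

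The counts on genes added up to between 14638727 and 20179760 per library. APOB had a mean of 224 ± 40.5 FPKM in control, 87.5 ± 6.11 in Ako-3 and 218 ± 9.46 in Mko-3 cells, and MTTP had 116 ± 5.24, 105 ± 5.25 and 16.0 ± 0.656 FPKM. FPKM is the count scaled by gene length and by library size, and an error after a level is the SD over 3 libraries. Each targeted gene was lowest in its own clone, as the labels say. All 10 hepatocyte markers, albumin and alpha-fetoprotein among them, were above 1 FPKM in every group, and their summed level was 5087 to 5259 FPKM in control, 5992 to 6287 in Ako-3 and 4924 to 5152 in Mko-3 libraries. These sums hold members that moved apart, as 8 of the 10 rose and none fell in Ako-3 cells, while 3 rose and 4 fell in Mko-3 cells. AFP rose in Mko-3 cells by a log2 fold change of 0.80 ± 0.05 (adjusted p = 1.1e-10), and AHSG and APOH, which rose in Ako-3 cells, fell in Mko-3 cells with log2 fold changes of -0.96 ± 0.06 and -0.54 ± 0.07 (adjusted p = 9.2e-11 and 2.2e-06). The 6 cholangiocyte markers summed to between 118 and 129 FPKM in control and Ako-3 libraries and to between 168 and 173 FPKM in Mko-3 libraries, and KRT7 among them had no count in any library. In Mko-3 cells KRT19 rose 7.56-fold, from 3.99 to 30.5 FPKM, SPP1 7.39-fold, from 0.276 to 2.10 FPKM, and EPCAM 2.25-fold, from 31.6 to 71.9 FPKM. In Ako-3 cells KRT19 rose 1.41-fold and EPCAM 1.58-fold, and SOX9, which had the highest level of the 6 in control, fell in both clones, to 64.5 FPKM in Ako-3 and 66.8 FPKM in Mko-3 from 88.0 FPKM in control. Fibroblast markers summed to at most 1.27 FPKM and skeletal muscle markers to at most 0.250 FPKM in any library. The 5 neuronal markers summed to between 5.44 and 8.05 FPKM. Of the endothelial markers, which summed to between 7.30 and 14.6 FPKM, KDR and TEK had no count. The leukocyte list summed to between 150.3 and 203 FPKM, nearly all of it from LYZ, while PTPRC had a mean of at most 0.00613 FPKM in any group. Counts on mitochondrial genes made up 5.78% ± 0.34 in control, 7.28% ± 0.19 in Ako-3 and 5.80% ± 0.04 in Mko-3 libraries (SD, n = 3 each). The part of the marker levels and of the mitochondrial share in the results was not tested.

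In Ako-3 cells, the clone without APOB, the genes of all 3 glucose transporters, of the regulators PFKFB3 and PFKFB4, and of TPI1, PGAM1, PKM, PKLR and LDHA rose, while ENO2 and PDK4 fell most. Of 31 genes with enough counts to be tested, 14 rose and 6 fell against control in the quasi-likelihood test of edgeR, at a p of at most 0.05 after Benjamini-Hochberg adjustment over all genes. The background was 25.5% of the 15787 tested genes rising and 24.4% falling, 49.9% in all. Genes that passed and also changed by at least 1 on the log2 scale were called differentially expressed. They were 5 of the 31, against 8.52% of all tested genes, with SLC2A2, PFKFB3 and PDK2 upward, against 3.52%, and ENO2 and PDK4 downward, against 5.00%. SLC2A2, with at most 6 counts in any control library, reached the count needed for testing only through its Ako-3 libraries. The median log2 fold change of the 31 genes was 0.11, beside -0.01 over all tested genes. The groups did not overlap for 22 of the 31, against 57.6% of all tested genes. Without control 3 the differentially expressed genes were 3, as PDK2 and PDK4 then fell short of a log2 fold change of 1. Scaled by library totals alone, 14 of the 31 rose and 9 fell, and the share rising among all genes that passed was 38.2% in place of 51.2%.

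In Mko-3 cells, the clone without MTTP, SLC2A1, SLC2A2, GPI, PFKFB3, PFKFB4, TPI1, PGAM1, ENO1, ENO3, PKM, LDHA and PDK1 rose. The liver isoform PKLR, the gluconeogenic genes PCK1 and FBP1, and KHK fell, and so did PDK2, PDK4, PFKFB2, ALDOC, PFKM and PGK1. SLC2A2, a transporter gene of hepatocytes, was thus among those that rose, and the fall of FBP1 rests on few counts. SLC2A2, with at most 6 counts in any control library, reached the count needed for testing only through its Mko-3 libraries. FBP1, with at most 10 counts in any Mko-3 library, reached it only through its control libraries. Beside the falls of PKLR, PCK1, FBP1 and KHK, 4 of the 10 hepatocyte markers fell and 3 rose, with log2 fold changes from -0.96 to 0.80. Their part was not tested. Of 31 genes tested, 12 rose and 10 fell, where 26.9% of the 15745 tested genes rose and 27.1% fell, 54.0% in all. Differentially expressed were 8 of them, against a background of 11.0%. SLC2A1, SLC2A2, PFKFB3 and PKM were higher, against 3.82% of all tested genes, and PKLR, PDK2, PCK1 and FBP1 were lower, against 7.22%. Their median log2 fold change was 0.04, beside -0.01 over all tested genes. For 21 of the 31 the groups did not overlap, against 60.7% of all tested genes. Scaled by library totals alone, the share rising among all genes that passed was 41.1% in place of 49.8%. HK2 then passed as lower (adjusted p = 0.0347).

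Each clone was compared with the same 3 control libraries, so the directions in the clones are not independent of each other. With that limit, 10 genes rose in both clones, namely SLC2A1, SLC2A2, PFKFB3, PFKFB4, TPI1, PGAM1, ENO3, PKM, LDHA and PDK1, where 18.2% of the genes tested in both comparisons rose in both. Of these, SLC2A2 could be tested only through its counts in the clones. PFKFB2, ALDOC and PDK4 fell in both, against 17.1% of all genes, and PKLR and PDK2 rose in Ako-3 cells and fell in Mko-3 cells, against 2.12% of all genes. PFKL, PFKFB1, ALDOA and GAPDH passed the test in neither clone, and HK1, PFKP and LDHB had too few counts to be tested. Added together, the levels of the 34 genes came to 2187 to 2317 FPKM in control libraries, 2610 to 2672 in Ako-3 libraries and 2830 to 2876 in Mko-3 libraries, and no 2 groups overlapped. Genes of high level weigh most in this sum, such as ENO1, at 373 FPKM in control and 523 in Mko-3 cells. Of the 31 tested genes, 14 rose and 6 fell in Ako-3 cells, and 12 rose and 10 fell in Mko-3 cells. In bulk RNA, fewer cells of a kind and less RNA per cell cannot be told apart.

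**Figure D1:**
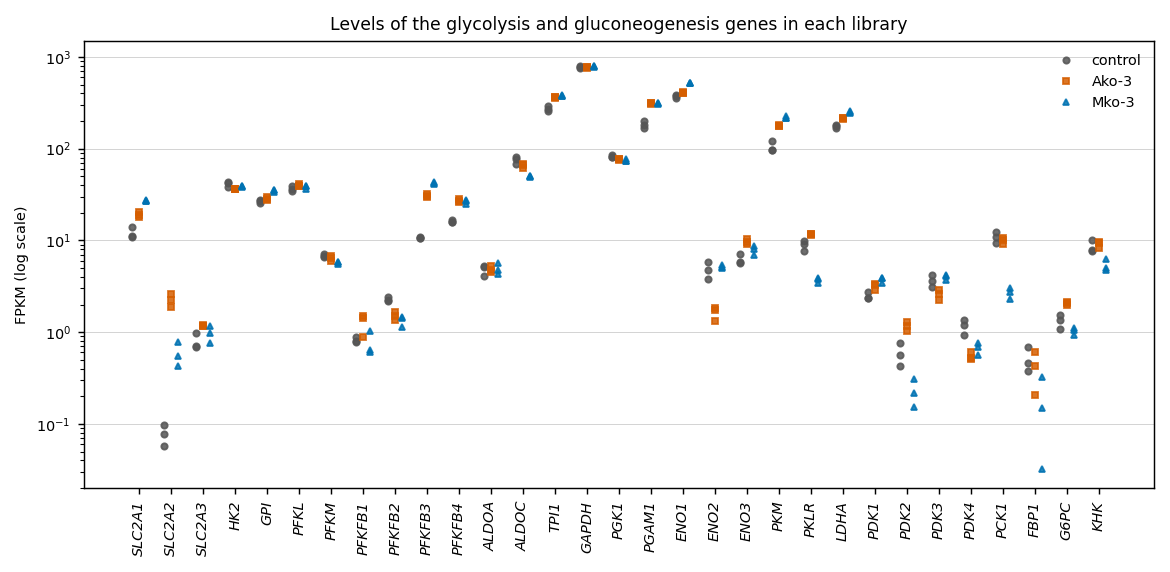
FPKM on a log axis for the 31 genes with enough counts in at least 1 comparison, in the order of the reactions, with 1 point per library (grey circles control, orange squares Ako-3, blue triangles Mko-3). GAPDH is the highest gene at 750.2 to 803 FPKM with all groups overlapping, and SLC2A2 in control libraries is among the lowest at 0.0575 to 0.0964 FPKM.

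**Figure D2:**
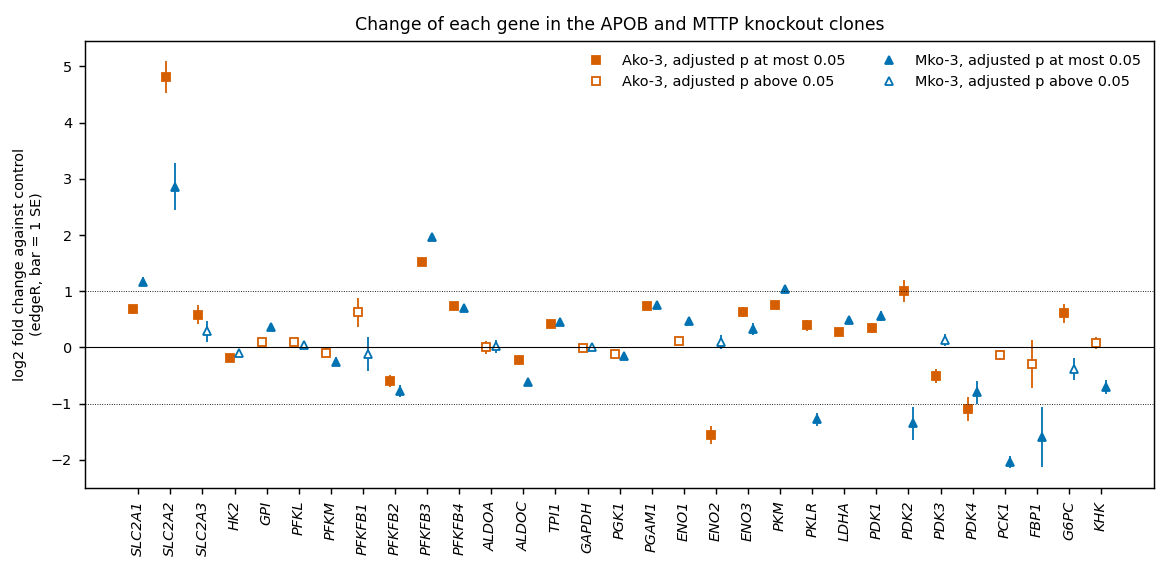
Log2 fold change of each tested gene against control in Ako-3 (orange squares) and Mko-3 cells (blue triangles), with bars of 1 SE, filled where the adjusted p was at most 0.05. Dotted lines mark the fold change threshold of 1 in either direction, which SLC2A2 and PFKFB3 passed upward in both clones, while PKLR and PDK2 lie on opposite sides of zero. SLC2A2 had at most 6 counts in any control library.

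The DNA just before the start of these genes was searched for 3 short motifs known from the control of glucose metabolism, and 3 windows are shown because their genes stand for the main patterns, PFKFB3 and LDHA for the genes that rose in both clones and PKLR for those with opposite directions. The windows are the 250 bases before the RefSeq start, written 5′ to 3′ on the gene's strand from GRCh38.p14. Capitals mark ACGTG or GCGTG, the core that hypoxia-inducible factors bind, read on either strand, so that a match on the other strand appears as CACGT or CACGC. The PFKFB3 window lies at chr10:6144671-6144920 on the plus strand, LDHA at chr11:18394313-18394562 on the plus strand and PKLR at chr1:155301439-155301688 on the minus strand.
PFKFB3: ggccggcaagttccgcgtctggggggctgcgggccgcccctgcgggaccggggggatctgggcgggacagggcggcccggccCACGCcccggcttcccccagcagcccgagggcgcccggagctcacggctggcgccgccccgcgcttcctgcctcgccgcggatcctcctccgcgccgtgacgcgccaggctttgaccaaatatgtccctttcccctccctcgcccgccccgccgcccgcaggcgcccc
LDHA: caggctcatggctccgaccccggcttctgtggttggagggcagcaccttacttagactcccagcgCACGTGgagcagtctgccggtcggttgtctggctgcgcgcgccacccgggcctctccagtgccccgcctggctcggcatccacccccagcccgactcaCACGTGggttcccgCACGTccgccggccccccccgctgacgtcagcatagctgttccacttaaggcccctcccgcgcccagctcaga
PKLR: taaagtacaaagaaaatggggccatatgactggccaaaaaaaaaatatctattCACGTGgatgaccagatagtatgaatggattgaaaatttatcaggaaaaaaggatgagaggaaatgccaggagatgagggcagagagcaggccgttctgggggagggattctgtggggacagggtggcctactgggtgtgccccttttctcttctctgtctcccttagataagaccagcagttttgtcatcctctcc
The PFKFB3 window held 1 match, the PKLR window 2 and the LDHA window 5, where a CACGTG counts on both strands. Of the 34 genes, 30 had a window, and 17 of these (56.7%) held at least 1 match, beside 43.1% of all 27305 RefSeq windows of that length. CACGTG, the E-box bound by MYC and by the glucose-responsive factor ChREBP, contains ACGTG and was in the windows of ALDOC, GAPDH, PKLR and LDHA, 13.3% of the 30 beside 6.49% of all windows. ACGTCA, which makes up most of the cyclic AMP response element, was in those of HK2, ALDOA, ENO1, LDHA and PDK3, 16.7% beside 7.42% of all windows. All 3 motifs contain CG, and the windows of all genes were not matched to the 30 for their share of G and C. That share was 79.2% in the PFKFB3 window, 69.6% in that of LDHA and 46% in that of PKLR. Its part in the shares with a match was not tested. A match is a description of the letters and not a bound site. Many of these genes have several starts. Of the GENCODE transcripts of PFKFB3, 1 of 19 begins within 250 bases of the RefSeq start used, as do 16 of 23 of LDHA and 1 of 3 of PKLR. Of the transcripts of ENO3, PFKP and PGAM1 none does, and ENO3 is among the 17 genes with a match. The PKLR window lies directly before the outermost base of the gene, 155301438. Bases before the other starts of PKLR were not searched, and which start these cells use was not tested.

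Glucose enters the cell through the facilitative transporters of the SLC2A family. SLC2A1 (ENSG00000117394, chr1:42925375-42959176, minus strand, hg38) encodes GLUT1, the transporter of most growing cells. It was at 11.1, 13.9 and 11.0 FPKM in the control libraries, 17.8, 20.6 and 19.1 in Ako-3 and 26.9, 26.9 and 27.6 in Mko-3 libraries. The groups did not overlap, with control lowest and Mko-3 highest. The log2 fold change against control was 0.68 ± 0.09 (SE) in Ako-3 cells, a 1.60-fold rise, with an adjusted p of 2.1e-06. In Mko-3 cells it was 1.17 ± 0.08, a 2.25-fold rise, with an adjusted p of 1.3e-10. SLC2A2 (ENSG00000163581, chr3:170996348-171026750, minus strand) encodes GLUT2, the low-affinity transporter of hepatocytes and of pancreatic beta cells. Its counts were 5, 3 and 6 in the control libraries, 128, 178 and 113 in Ako-3 and 26, 47 and 29 in Mko-3 libraries. In FPKM these are 0.0779, 0.0575 and 0.0964 in control, 2.26, 2.61 and 1.90 in Ako-3 and 0.427, 0.776 and 0.551 in Mko-3 libraries. Control was lowest and Ako-3 highest in every library. The log2 fold change was 4.81 ± 0.28 in Ako-3 cells (adjusted p = 3.9e-11) and 2.86 ± 0.42 in Mko-3 cells (adjusted p = 6.6e-06), and the few control counts leave its size uncertain. SLC2A3, which encodes the high-affinity transporter GLUT3 of neurons, rose in Ako-3 cells from 0.791 ± 0.162 to 1.18 ± 0.00651 FPKM, with a log2 fold change of 0.58 ± 0.17 and an adjusted p of 0.00648. Its level in Mko-3 cells was 0.972 ± 0.200 FPKM (adjusted p = 0.208, and 0.0472 without control 2). SLC2A3 is nearly identical to SLC2A14, so reads may have been divided between these genes.

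Hexokinase traps glucose in the cell as a phosphate. HK2, the inducible hexokinase of muscle, fat and many tumours, was practically the only one of the HK1 and HK2 pair, as HK1, the widely expressed hexokinase, had 0 or 1 count in every library. HK2 was at 42.0, 37.9 and 43.1 FPKM in control, 36.1, 36.0 and 36.1 in Ako-3 and 38.1, 39.3 and 39.0 in Mko-3 libraries. Every Ako-3 library was below every control library. On the log2 scale the change was -0.19 ± 0.06 in Ako-3 cells (adjusted p = 0.0171), and the call was lost without any 1 of the Ako-3 libraries or without control 3, where the adjusted p was between 0.0653 and 0.0732. In Mko-3 cells it was -0.09 ± 0.06 (adjusted p = 0.219), and it passed without control 2 (adjusted p = 0.0393).

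GPI encodes the isomerase that turns glucose phosphate into fructose phosphate. Its levels were 27.6, 27.1 and 25.3 FPKM in control, 27.5, 28.4 and 30.0 in Ako-3 and 35.1, 34.1 and 35.0 in Mko-3 libraries. Ako-3 and control overlapped, with an adjusted p of 0.183, while every Mko-3 library was higher than every control library, by a log2 fold change of 0.37 ± 0.06 (adjusted p = 1.6e-05). Phosphofructokinase makes the committed step. PFKL, its liver subunit, was the leading subunit gene in all 9 libraries, at 39.2, 36.7 and 34.9 FPKM in control, 38.8, 40.8 and 39.0 in Ako-3 and 39.5, 36.6 and 38.8 in Mko-3 libraries. All groups overlapped, and the 95% interval of the log2 fold change ran from -0.02 to 0.21 in Ako-3 cells and from -0.08 to 0.16 in Mko-3 cells. PFKM, the muscle subunit, was at 6.80 ± 0.267 FPKM in control and 6.40 ± 0.393 in Ako-3 cells, with an adjusted p of 0.333. In Mko-3 cells it fell to 5.76 ± 0.194 FPKM, a log2 fold change of -0.25 ± 0.08 (adjusted p = 0.00736), a call that was lost without Mko-3 library 2 (adjusted p = 0.0549). PFKP, the platelet subunit, had 0 to 6 counts per library.

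The PFKFB genes encode bifunctional enzymes that make and remove fructose bisphosphate in the form that activates phosphofructokinase, and PFKFB3 (ENSG00000170525, chr10:6144934-6254644, plus strand) is the isoenzyme whose kinase activity most exceeds its phosphatase activity. PFKFB3 was at 10.6, 10.5 and 10.8 FPKM in the control libraries, 30.3, 31.9 and 29.9 in Ako-3 and 42.1, 41.2 and 43.4 in Mko-3 libraries. The spread within a group was small beside the gaps, and the 3 groups were separate, Mko-3 highest. The rise was 2.87-fold in Ako-3 cells (adjusted p = 3e-13) and 3.93-fold in Mko-3 cells, where the log2 fold change was 1.97 ± 0.06 (adjusted p = 2.8e-16). PFKFB4, an isoenzyme first known from testis and common in tumours, was at 16.1, 16.8 and 15.8 FPKM in control, 26.9, 28.5 and 26.1 in Ako-3 and 27.2, 27.3 and 25.2 in Mko-3 libraries. Both clones lay above control and overlapped each other. Its log2 fold change was 0.74 ± 0.06 in Ako-3 cells (adjusted p = 9.7e-09) and 0.70 ± 0.06 in Mko-3 cells (adjusted p = 9.2e-09). PFKFB2, the heart isoenzyme, went the other way, from 2.27 ± 0.132 FPKM in control to 1.51 ± 0.162 in Ako-3 and 1.33 ± 0.176 in Mko-3 cells. Its log2 fold change was -0.59 ± 0.11 in Ako-3 cells (adjusted p = 0.00011) and -0.78 ± 0.11 in Mko-3 cells (adjusted p = 4.7e-06). PFKFB1, the liver isoenzyme, was near the low end in every group, at 0.822 ± 0.0608 FPKM in control, 1.27 ± 0.328 in Ako-3 and 0.757 ± 0.242 in Mko-3 cells. It did not pass against control in either clone (adjusted p = 0.0561 in Ako-3 and 0.761 in Mko-3 cells), though it did in Ako-3 cells without Ako-3 library 3, at an adjusted p of 0.0204.

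Aldolase cleaves the fructose bisphosphate into smaller sugar phosphates. ALDOC, the isoform best known from brain, was at 81.3, 67.2 and 77.0 FPKM in control, 65.8, 68.0 and 60.8 in Ako-3 and 49.8, 49.8 and 48.5 in Mko-3 libraries. Mko-3 cells were below control throughout, with a log2 fold change of -0.62 ± 0.07 (adjusted p = 1.5e-07). Ako-3 and control overlapped, and the log2 fold change of -0.22 ± 0.07 (adjusted p = 0.0159) lost its call without Ako-3 library 3, control 1 or control 3, at adjusted p between 0.0555 and 0.122. ALDOA, the widely expressed isoform, had 4.81 ± 0.603 FPKM in control, 4.83 ± 0.336 in Ako-3 and 4.92 ± 0.724 in Mko-3 cells, and 54.2% of its exon bases also belong to exons of other genes, which can keep reads from being counted on it. The low level of ALDOA beside ALDOC is given with that limit. TPI1, which interconverts the cleavage products, was at 291, 269 and 255 FPKM in control, 354, 367 and 368 in Ako-3 and 373, 372 and 385 in Mko-3 libraries. Both clones were above every control library, by 0.41 ± 0.06 on the log2 scale in Ako-3 (adjusted p = 9e-06) and 0.46 ± 0.06 in Mko-3 cells (adjusted p = 1.2e-06).

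GAPDH, the dehydrogenase step and a common reference gene, was the highest of the 34 genes, at 803, 750.2 and 777 FPKM in control, 773, 785 and 761 in Ako-3 and 779.5, 794 and 796 in Mko-3 libraries. The groups overlapped, and the 95% interval of the log2 fold change ran from -0.12 to 0.10 in Ako-3 and from -0.09 to 0.12 in Mko-3 cells. PGK1, the kinase of the first ATP-yielding step, was at 84.7, 80.4 and 81.6 FPKM in control, 76.4, 76.7 and 75.0 in Ako-3 and 73.3, 77.0 and 73.6 in Mko-3 libraries. Both clones lay just below control. The fall in Mko-3 cells was by a log2 fold change of -0.15 ± 0.06 (adjusted p = 0.0289), which was lost without control 1 or any 1 of the Mko-3 libraries, at adjusted p between 0.0571 and 0.149, and the value in Ako-3 cells was -0.12 ± 0.06 (adjusted p = 0.0946, and 0.0439 without control 2). PGAM1, the mutase that moves the phosphate to the next carbon, was at 181, 201 and 169 FPKM in control, 305, 311 and 311 in Ako-3 and 316, 309.5 and 317 in Mko-3 libraries. It stood well above control in both clones to nearly the same extent, with rises of 1.68-fold (adjusted p = 7.7e-09) and 1.69-fold (adjusted p = 2.3e-09).

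Enolase makes phosphoenolpyruvate, and its isoform genes differed in their changes. ENO1, the widely expressed isoform, was at 386, 378 and 356 FPKM in control, 399, 416 and 400.0 in Ako-3 and 521, 524 and 524 in Mko-3 libraries. Every Mko-3 library was above all others, by a log2 fold change of 0.47 ± 0.05 against control (adjusted p = 2.4e-07), while the value in Ako-3 cells was 0.11 ± 0.06 (adjusted p = 0.0969, and 0.0464 without control 1). ENO2 (ENSG00000111674, chr12:6913745-6923698, plus strand) is the neuronal isoform and a marker of neuroendocrine cells. It was at 5.79, 3.78 and 4.74 FPKM in control, 1.83, 1.73 and 1.33 in Ako-3 and 5.45, 5.13 and 4.96 in Mko-3 libraries. The Ako-3 libraries were below all others, and control and Mko-3 overlapped. The fall in Ako-3 cells was 2.94-fold, a log2 fold change of -1.56 ± 0.16 (adjusted p = 2.5e-07), and the adjusted p in Mko-3 cells was 0.509. ENO3, the muscle isoform, rose from 6.21 ± 0.750 FPKM in control to 9.65 ± 0.580 in Ako-3 cells, a log2 fold change of 0.63 ± 0.09 (adjusted p = 9.8e-06). In Mko-3 cells it was 7.89 ± 0.887 FPKM, a log2 fold change of 0.33 ± 0.10 (adjusted p = 0.00884) that lost its call without Mko-3 library 1 (adjusted p = 0.0679) or control 3 (adjusted p = 0.0575).

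Pyruvate kinase closes glycolysis, and of its genes PKM rose in both clones while PKLR rose in one and fell in the other. PKM (ENSG00000067225, chr15:72199029-72231822, minus strand) encodes the muscle-type enzyme and its splice form of growing cells. It was at 95.9, 122 and 97.4 FPKM in control, 175, 177 and 180.0 in Ako-3 and 214, 214 and 228 in Mko-3 libraries. The groups were separate, and control 2 was the highest of the control libraries. The rise was 1.68-fold in Ako-3 cells (log2 fold change 0.75 ± 0.07, adjusted p = 2.1e-07) and 2.06-fold in Mko-3 cells (log2 fold change 1.04 ± 0.08, adjusted p = 7e-09). The value in Mko-3 cells lay just past the threshold of 1 and was 0.99 without control 1 or control 3. PKLR (ENSG00000143627, chr1:155289293-155301438, minus strand) is the liver and red cell gene. It was at 9.89, 7.73 and 9.04 FPKM in control, 11.5, 11.9 and 11.9 in Ako-3 and 3.84, 3.81 and 3.42 in Mko-3 libraries. Ako-3 was highest and Mko-3 lowest with no overlap. The log2 fold change was 0.39 ± 0.09 in Ako-3 cells (adjusted p = 0.0013) and -1.28 ± 0.11 in Mko-3 cells, a 2.43-fold fall (adjusted p = 4.7e-09). HCN3, on the opposite strand, shares 17.6% of the exon bases of PKLR and had 312 to 824 counts per library, and its part in these values was not tested.

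Lactate dehydrogenase turns pyruvate into lactate. LDHA, the isoform of muscle and of growing cells, was at 178, 181 and 169.8 FPKM in control, 214, 215 and 212 in Ako-3 and 244, 258 and 248 in Mko-3 libraries. The groups rose in that order without overlap. Against control, LDHA changed by 0.27 ± 0.06 on the log2 scale in Ako-3 cells (adjusted p = 0.00035) and 0.49 ± 0.06 in Mko-3 cells (adjusted p = 1.9e-07). LDHB, the isoform of heart and red cells, had 0 to 2 counts per library, although 33.4% of its exon bases are shared with another gene entry, which had 0 or 1 count.

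**Figure D3:**
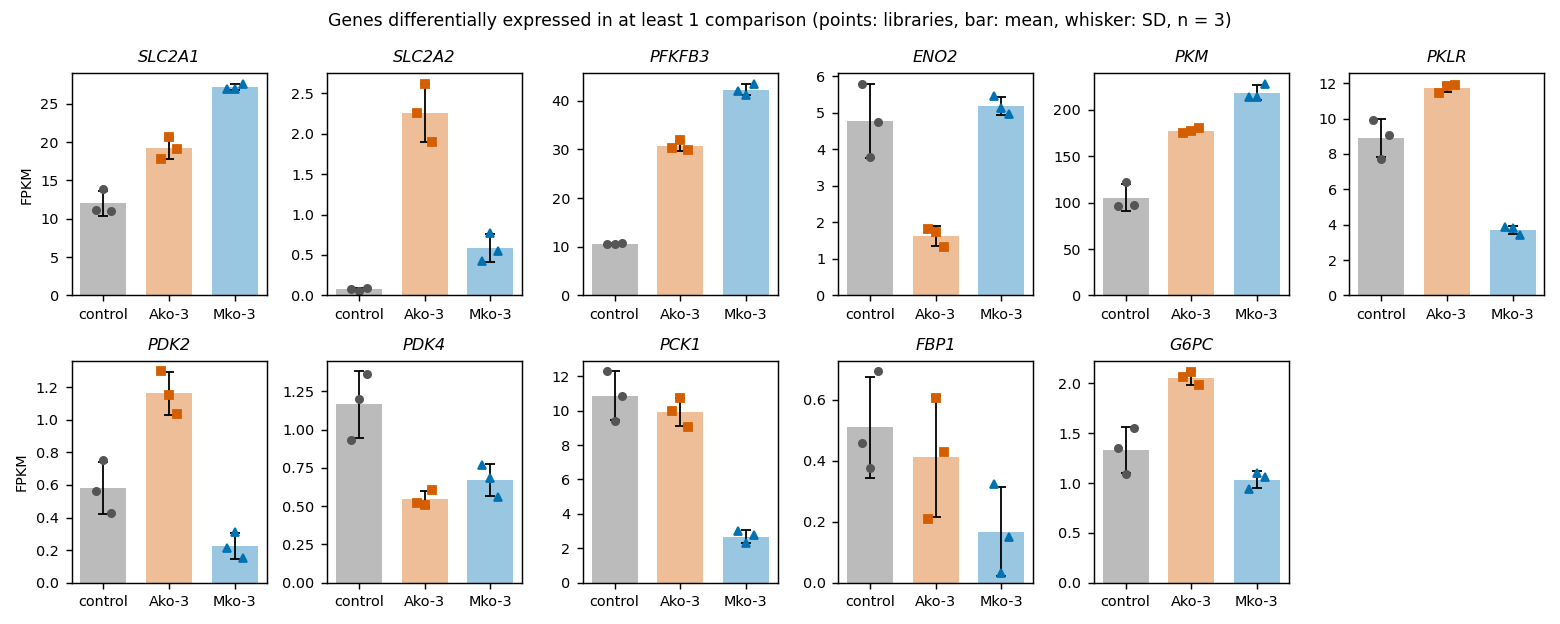
FPKM of the 11 genes differentially expressed in at least 1 of the 3 comparisons, with points for libraries, bars for the mean and whiskers for the SD of 3 libraries. PFKFB3 and SLC2A1 rise from control over Ako-3 to Mko-3, PKLR and PDK2 are highest in Ako-3 and lowest in Mko-3 libraries, PCK1 is lowest in Mko-3 libraries, and FBP1 in Ako-3 libraries spreads over both other groups.

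Pyruvate dehydrogenase kinases switch off the entry of pyruvate into the mitochondrial citrate cycle. PDK1, the isoenzyme known as a target of hypoxia-inducible factor, was at 2.35, 2.37 and 2.75 FPKM in control, 3.27, 3.37 and 2.87 in Ako-3 and 3.85, 3.85 and 3.44 in Mko-3 libraries. It was above control in both clones, by 0.34 ± 0.09 (adjusted p = 0.00283) on the log2 scale in Ako-3 and 0.56 ± 0.08 (adjusted p = 8.2e-06) in Mko-3 cells. PDK3, an isoenzyme of restricted tissue range, was at 3.13, 3.57 and 4.23 FPKM in control, 2.90, 2.23 and 2.60 in Ako-3 and 4.14, 4.22 and 3.74 in Mko-3 libraries. It fell in Ako-3 cells, by a log2 fold change of -0.51 ± 0.13 (adjusted p = 0.00274), with an adjusted p of 0.327 in Mko-3 cells.

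PDK2 (ENSG00000005882, chr17:50094737-50112152, plus strand) is the most widely expressed isoenzyme in the body. It was low here, at 0.563, 0.753 and 0.431 FPKM in control, 1.30, 1.15 and 1.04 in Ako-3 and 0.215, 0.309 and 0.154 in Mko-3 libraries, or 13 to 126 counts. Every Ako-3 library was above and every Mko-3 library below control. In Ako-3 cells the log2 fold change was 1.00 ± 0.20 (adjusted p = 0.00028), just past 1, and was 0.93 without Ako-3 library 1, 0.99 without control 1 and 0.83 without control 3. In Mko-3 cells it was -1.35 ± 0.29 (adjusted p = 0.00056). SAMD14 shares 38.6% of the exon bases of PDK2 on the opposite strand, with 0 to 3 counts. PDK4 (ENSG00000004799, chr7:95583499-95596491, minus strand) is the isoenzyme induced by fasting. It was at 0.930, 1.20 and 1.36 FPKM in control, 0.521, 0.511 and 0.609 in Ako-3 and 0.770, 0.687 and 0.560 in Mko-3 libraries. Control was highest, and the clones overlapped. The log2 fold change was -1.09 ± 0.21 in Ako-3 cells (adjusted p = 0.00018; -0.96 without control 3) and -0.79 ± 0.20 in Mko-3 cells (adjusted p = 0.00229).

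Of the 3 genes particular to gluconeogenesis, PCK1 and FBP1 fell in Mko-3 cells and G6PC rose in Ako-3 cells. PCK1 (ENSG00000124253, chr20:57561080-57568112, plus strand) is the cytosolic phosphoenolpyruvate carboxykinase that opens the route. It was at 12.3, 9.42 and 10.9 FPKM in control, 9.98, 10.7 and 9.06 in Ako-3 and 3.00, 2.28 and 2.77 in Mko-3 libraries. Mko-3 libraries were far below all others, while Ako-3 and control overlapped. The fall in Mko-3 cells was 4.09-fold, a log2 fold change of -2.03 ± 0.11 (adjusted p = 8e-11), and the value in Ako-3 cells was -0.14 ± 0.09 (adjusted p = 0.218, and 0.0152 without control 2). FBP1 (ENSG00000165140, chr9:94603133-94640249, minus strand) is the fructose bisphosphatase of liver and kidney. It was close to the detection limit, with 15, 10 and 22 counts in control, 6, 21 and 13 in Ako-3 and 10, 1 and 4 in Mko-3 libraries. In FPKM every Mko-3 library was below every control library, and Ako-3 overlapped both. Its log2 fold change of -1.59 ± 0.54 in Mko-3 cells (adjusted p = 0.0166) was lost with DESeq2 (adjusted p = 0.0797) and without control 3 (0.108), Mko-3 library 2 (0.111) or Mko-3 library 3 (0.0602), and its value ran from -2.51 without Mko-3 library 1 to -1.09 without Mko-3 library 2. PCAT7, on the opposite strand, covers 14.8% of its exon bases and had 236 to 372 counts.

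G6PC (ENSG00000131482, chr17:42900797-42913369, plus strand) is the glucose phosphatase that lets free glucose leave the liver cell. It was at 1.36, 1.09 and 1.55 FPKM in control, 2.07, 2.12 and 1.98 in Ako-3 and 0.936, 1.10 and 1.06 in Mko-3 libraries. Ako-3 was above all others, and Mko-3 overlapped control. It rose in Ako-3 cells by a log2 fold change of 0.61 ± 0.17 (adjusted p = 0.00494), and the value in Mko-3 cells was -0.39 ± 0.20 (adjusted p = 0.102), which passed without control 2 (adjusted p = 0.0419). KHK, the ketohexokinase that starts fructose breakdown in liver, was at 10.1, 7.90 and 7.71 FPKM in control, 8.24, 9.48 and 9.68 in Ako-3 and 4.97, 6.25 and 4.71 in Mko-3 libraries. Mko-3 libraries were below all others. The fall in Mko-3 cells was by a log2 fold change of -0.70 ± 0.12 (adjusted p = 8.5e-05), and Ako-3 cells had 0.09 ± 0.11 (adjusted p = 0.521).

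Comparing the clones with each other, without the control libraries, shows where they differ from one another. Of 30 genes tested, 9 were higher and 10 lower in Mko-3 than in Ako-3 cells, where 21.1% of 15528 genes were higher and 20.6% lower, 41.6% in all. Differentially expressed were 6, against 5.73% of all genes, with ENO2 higher in Mko-3 cells, against 2.26%, and SLC2A2, PKLR, PDK2, PCK1 and G6PC lower, against 3.47%. For 21 of the 30 the clones did not overlap, against 49.8% of all genes, and the median log2 fold change was -0.01, beside 0.0048 over all genes. PKLR was 3.19-fold lower in Mko-3 cells (log2 fold change -1.67 ± 0.09, adjusted p = 7.1e-28). PDK2 was 5.08-fold lower (log2 fold change -2.35 ± 0.22, adjusted p = 6.5e-15). For PCK1 the factor was 3.72 (adjusted p = 3.1e-30), and for SLC2A2 it was 3.87 (adjusted p = 6.5e-14). G6PC stood at the threshold, with a log2 fold change of -1.0 ± 0.17 (adjusted p = 1.1e-06) that became -0.93 without Mko-3 library 1, -0.998 without Ako-3 library 1 and -0.98 without Ako-3 library 2. ENO2 was 3.16-fold higher in Mko-3 cells (adjusted p = 2.8e-21).

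Among the other genes of glucose breakdown, PFKFB3 (0.45 ± 0.04), SLC2A1 (0.49 ± 0.05), ENO1 (0.36 ± 0.03), PKM (0.29 ± 0.03), GPI (0.27 ± 0.04) and LDHA (0.22 ± 0.03) had higher levels in Mko-3 than in Ako-3 cells, each value being a log2 fold change with its SE. Their adjusted p-values ran from 9.9e-08 for LDHA down to 8.9e-16 for ENO1. PDK3 and PDK1 were also higher, by 0.64 ± 0.10 (adjusted p = 2.3e-07) and 0.22 ± 0.07 (adjusted p = 0.00416), the latter not without Ako-3 library 3 (adjusted p = 0.0706). ALDOC, KHK, ENO3, PFKFB1 and PFKM were lower. The call of PFKFB1 (adjusted p = 0.0205) was lost without Mko-3 library 2 or 3 or Ako-3 library 1 or 2, with an adjusted p of up to 0.106. That of PFKM (adjusted p = 0.0487) was lost without any library other than Ako-3 library 2, with an adjusted p of up to 0.201. Both calls were also lost with DESeq2, at an adjusted p of 0.121 for PFKFB1 and 0.131 for PFKM. PGAM1, TPI1 and PFKFB4, which rose in both clones, did not pass between them, with log2 fold changes of 0.02 ± 0.04, 0.04 ± 0.03 and -0.04 ± 0.05.

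Because FPKM is per length, the levels of the isoforms of 1 step can be set beside each other, as the share of each in the summed FPKM of its family. This holds only as far as the deposited gene lengths fit the transcripts present, which was not tested. In 7 of 9 families the same gene led in every library, namely HK2, PFKL, ALDOC, ENO1, PKM, LDHA and SLC2A1. Within the PFKFB family PFKFB4 led in control cells with 54.1% ± 1.14 and PFKFB3 held 35.6% ± 0.799, while PFKFB3 led in Ako-3 cells with 50.6% ± 0.551 and in Mko-3 cells with 59.6% ± 1.85. PFKFB2 had 7.58% ± 0.497 of the family in control, 2.49% ± 0.213 in Ako-3 and 1.88% ± 0.236 in Mko-3 cells. No 2 groups overlapped for these shares.

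In the glucose transporters, SLC2A2 made up 0.620% ± 0.220 of the family in control, 9.96% ± 1.21 in Ako-3 and 2.04% ± 0.626 in Mko-3 cells, and SLC2A1 held the bulk with 93.3% ± 0.207, 84.8% ± 1.20 and 94.6% ± 0.460. PKLR contributed 7.94% ± 1.76 of pyruvate kinase in control, 6.21% ± 0.0734 in Ako-3 and 1.67% ± 0.163 in Mko-3 cells. Although PKLR rose in Ako-3 cells, its share there overlapped the control, and PKM had risen as well. Among the pyruvate dehydrogenase kinases PDK3 led in control with 46.1% ± 1.85 and in Mko-3 with 46.7% ± 0.633, and PDK1 led in Ako-3 cells with 42.5% ± 3.34. PDK2 held 7.50% ± 2.37, 15.6% ± 0.907 and 2.59% ± 0.746 in control, Ako-3 and Mko-3 cells. These shares are a description with no test.

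**Figure D4:**
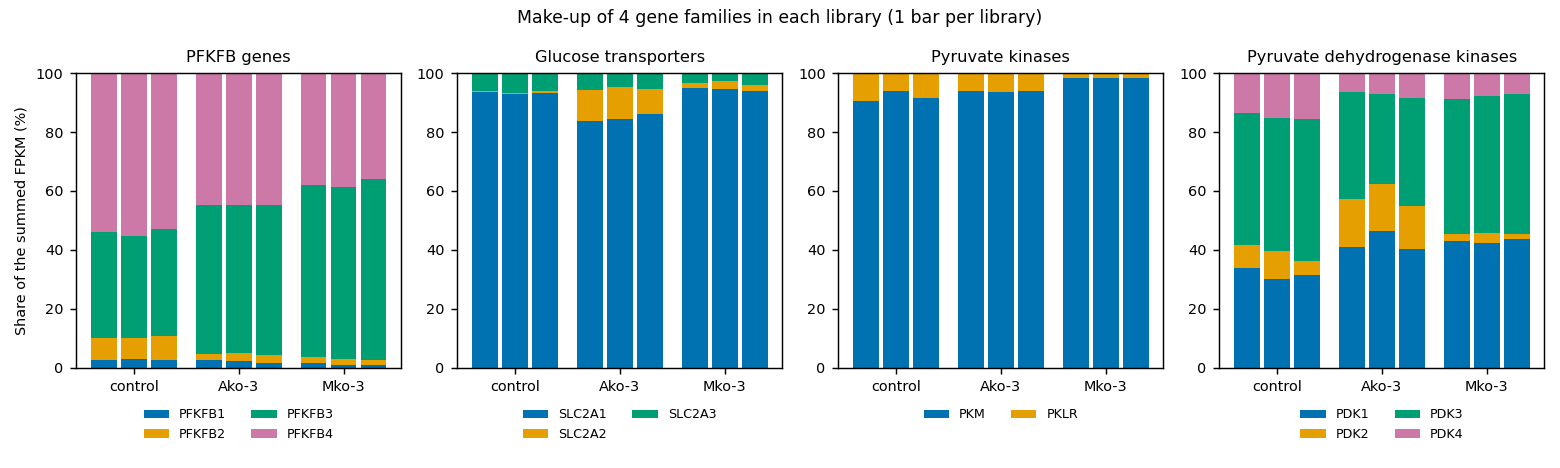
Share of each gene in the summed FPKM of its family in percent, with 1 stacked bar per library, for the PFKFB genes, glucose transporters, pyruvate kinases and pyruvate dehydrogenase kinases. PFKFB3 widens from 35.6% in control to 50.6% in Ako-3 and 59.6% in Mko-3 cells, and PKLR narrows to 1.67% in Mko-3 cells.

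Other genes of glucose metabolism were counted on 10 lists written from general knowledge. The lists were chosen with earlier results of these data known, so their shares beside the background are a description. Over all tested genes, 25.5% rose and 24.4% fell in Ako-3 cells and 26.9% rose and 27.1% fell in Mko-3 cells, together 49.9% and 54.0%, and these are the shares beside which each list is counted. Of the further glycolytic genes, 7 of 15 were tested against control, with 2 rising and 2 falling in each clone. Their log2 fold changes ran from -1.10 to 1.32 in Ako-3 and from -2.73 to 2.57 in Mko-3 cells. HKDC1, a further hexokinase gene, rose from 0.619 to 3.77 FPKM in Mko-3 cells (log2 fold change 2.57 ± 0.17, adjusted p = 6.8e-11), and LDHD, the mitochondrial D-lactate dehydrogenase, fell from 3.90 to 0.592 FPKM (log2 fold change -2.73 ± 0.20, adjusted p = 3.2e-10). ADPGK, the ADP-dependent glucokinase, rose in both clones, by 0.27 ± 0.09 in Ako-3 and 0.66 ± 0.08 in Mko-3 cells on the log2 scale. Of the other genes of gluconeogenesis and glucose release, 3 of 7 tested rose and 1 fell in Ako-3 cells, and 3 of 7 fell in Mko-3 cells, where the other 4 did not pass. Those that fell were PCK2, the mitochondrial carboxykinase (-0.98 ± 0.07), SLC37A4, the glucose phosphate transporter of the endoplasmic reticulum (-0.63 ± 0.07), and PC, pyruvate carboxylase (-0.32 ± 0.06). In Ako-3 cells PCK2 fell by a log2 fold change of -0.48 ± 0.07 and PC rose by 0.22 ± 0.06.

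Of the other glucose transporters, 3 of 9 tested rose and 2 fell in Ako-3 cells, and 2 of 7 rose and 4 fell in Mko-3 cells. Their log2 fold changes ran from -1.18 to 2.41 in Ako-3 and from -1.73 to 0.46 in Mko-3 cells. The genes named from this list all fell, and its largest rise is not among them. SLC2A13, the inositol transporter, fell in Ako-3 (-1.18 ± 0.09) and in Mko-3 cells (-1.12 ± 0.08), and SLC2A4, the insulin-responsive GLUT4, fell in Mko-3 cells (-1.73 ± 0.16). SLC2A14 fell in Ako-3 (-0.40 ± 0.11) and in Mko-3 cells (-0.85 ± 0.11), with the limit on reads shared with SLC2A3. Of the lactate transport genes, 3 of 5 rose and 1 fell in each clone. SLC16A1, the monocarboxylate transporter MCT1, and SLC16A3, the lactate exporter MCT4, rose by 0.27 ± 0.06 and 0.36 ± 0.07 in Ako-3 and by 0.38 ± 0.06 and 0.48 ± 0.07 in Mko-3 cells, while SLC16A7, the high-affinity MCT2, fell by a log2 fold change of -0.75 ± 0.07 and -0.73 ± 0.07.

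In the pentose phosphate pathway 1 of 9 genes rose and 2 fell in Ako-3 cells, and 4 rose and 3 fell in Mko-3 cells. H6PD, its enzyme in the endoplasmic reticulum, fell in Ako-3 (-0.69 ± 0.06) and Mko-3 cells (-0.43 ± 0.06), as did TKT, transketolase (-0.29 ± 0.06 and -0.40 ± 0.06), and PGD rose in Mko-3 cells (0.31 ± 0.06). In glycogen metabolism 9 of 17 tested genes rose and 4 fell in Ako-3 cells, and 10 rose and 1 fell in Mko-3 cells. That made 76.5% and 64.7% passing, beside 49.9% and 54.0% of all tested genes. GYS1, the muscle-type glycogen synthase, rose by 0.84 ± 0.07 in Ako-3 and 0.63 ± 0.07 in Mko-3 cells, and PYGB, the brain glycogen phosphorylase, by 0.25 ± 0.07 and 0.67 ± 0.06. PHKA2, the liver subunit of phosphorylase kinase, fell in Ako-3 (-0.24 ± 0.06) and rose in Mko-3 cells (0.56 ± 0.06). For fructose and galactose entry, 2 of 8 genes rose and 1 fell in Ako-3 cells, and 2 rose and 6 fell in Mko-3 cells, among the latter GLYCTK, glycerate kinase (-0.90 ± 0.07), and GALT, the galactose phosphate uridylyltransferase (-0.76 ± 0.09). AKR1B1, aldose reductase, rose from 0.129 FPKM to 0.330 in Ako-3 and 0.676 in Mko-3 cells.

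For pyruvate dehydrogenase and the citrate cycle, 8 of 23 genes rose and 3 fell in Ako-3 cells, and 5 rose and 4 fell in Mko-3 cells. The shares passing, 47.8% and 39.1%, were below the 49.9% and 54.0% of all tested genes. OGDH, a dehydrogenase of the cycle, rose in Ako-3 (0.71 ± 0.07) and Mko-3 cells (0.45 ± 0.07), as did SDHA, a subunit of succinate dehydrogenase (0.54 ± 0.07 and 0.42 ± 0.07). PDP2, the phosphatase that opposes the PDK enzymes, fell in both (-0.52 ± 0.09 and -0.78 ± 0.10). Of 20 regulators, 3 rose and 10 fell in Ako-3 cells, and 5 rose and 12 fell in Mko-3 cells, where 24.4% and 27.1% of all tested genes fell. The log2 fold changes of the regulators ran from -1.44 to 1.11 in Ako-3 and from -3.08 to 0.94 in Mko-3 cells. MLXIPL, which encodes ChREBP, fell from 13.3 FPKM to 8.55 in Ako-3 (log2 fold change -0.64 ± 0.08, adjusted p = 1.9e-06) and 3.06 in Mko-3 cells (-2.13 ± 0.10, adjusted p = 7.3e-13). TXNIP, an inhibitor of glucose uptake that is known to be induced by glucose, fell by a log2 fold change of -0.91 ± 0.07 and -1.23 ± 0.07. HNF4A, a master factor of hepatocytes, rose by 0.70 ± 0.06 and 0.30 ± 0.06. Of hypoxia-responsive genes outside glycolysis, 2 of 16 tested rose and 8 fell in Ako-3 cells, and 4 of 17 rose and 7 fell in Mko-3 cells. With 62.5% and 64.7% passing, the list stood beside 49.9% and 54.0% of all tested genes. VEGFA, the angiogenic growth factor, MXI1, a repressor that opposes MYC, and DDIT4, an inhibitor of mTOR, were all among those that fell in both, by log2 fold changes of -0.56 ± 0.06, -0.58 ± 0.07 and -0.61 ± 0.07 in Ako-3 and -0.17 ± 0.06, -0.65 ± 0.07 and -0.59 ± 0.08 in Mko-3 cells. The largest log2 fold change of the list in Mko-3 cells was a rise, that of CA9, a carbonic anhydrase at the cell surface, which is named here after its values were seen. CA9 had 8, 1 and 11 counts in the control libraries and 51, 41 and 65 in Mko-3 libraries (log2 fold change 3.00 ± 0.42, adjusted p = 3.9e-06), and it had 7, 6 and 3 counts in Ako-3 libraries, too few to be tested against control.

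**Figure D5:**
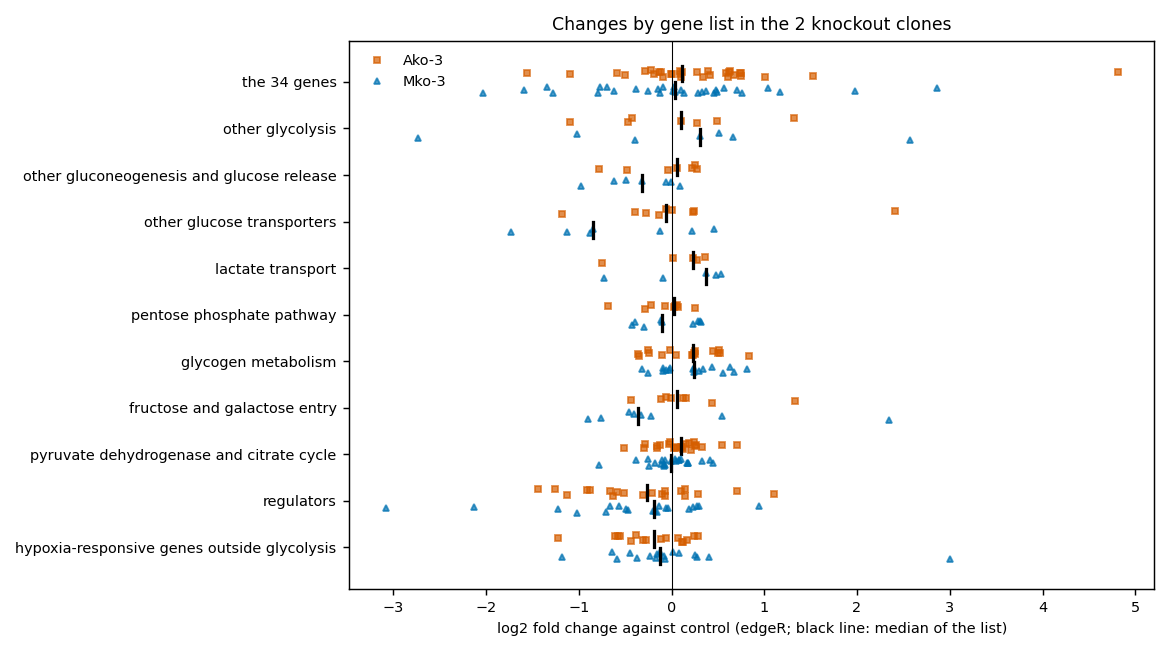
Log2 fold change against control of the tested genes of each list in Ako-3 (orange squares) and Mko-3 cells (blue triangles), with the median of each list as a black line and the 34 genes on top. The regulators have medians of -0.26 in Ako-3 and -0.19 in Mko-3 cells, and the glycogen genes of 0.23 and 0.24.

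The counting limits what some of these values can say. Copies of glycolytic genes are spread over the genome, and entries named as pseudogenes of GAPDH, 62 in number, together held between 0.379% and 0.485% of the count of GAPDH itself. Those of TPI1 held between 1.04% and 1.41%, those of PGAM1 at most 0.164% and those of LDHA at most 0.0716%. In GENCODE release 44, exon bases shared with other genes made up 23.8% of KHK, 17.6% of GAPDH and 11.3% of ALDOC beside the genes named above. Whether the counting used strand was not given in the sources used here, and the library preparation as described marks no strand.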

How the data were processed

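The authors had the reads aligned with HISAT2 2.0.5 and counted on genes with featureCounts 1.5.0-p3, as the submitters' processing notes name them. The raw counts were deposited for 58735 genes in 9 libraries with no normalization, and coordinates in the files fit hg38. The notes list GRCh37 and hg19 as well, and the annotation release and the use of strand were not given in the sources used here. The deposited FPKM values are the counts per gene length and per library size, scaled by the authors over all 9 libraries together. The deposited gene length, another column of the files, is in bases. Counts were tested and FPKM described.

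Each comparison was fitted on its own 6 libraries with edgeR 4.0.16 in R 4.3.3 (TMM factors of 0.961 to 1.07, genes kept by filterByExpr with min.count 10, quasi-likelihood F test with robust dispersion), over all genes, with Benjamini-Hochberg adjustment over all genes tested. A gene passed at an adjusted p of at most 0.05 and was called differentially expressed where it also changed by 1 or more on the log2 scale, the thresholds of the study. The SE is the size of the log2 fold change divided by the square root of F, and the intervals are 95%. DESeq2 1.42.0, limma 3.58.1 on log2(FPKM + 1), other scalings and filters, a joint fit, a replicate block and leaving out each library were alternatives. With total counts between 14638727 and 20179760, genes near the minimum count have wide errors. An exact permutation test of 3 against 3 libraries cannot give a p below 0.1 and was not used.

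The 34 genes and all lists were chosen with earlier results of these data known. All 34 are accounted for, and values in every library are given for genes differentially expressed in any comparison, for the leading gene of each family and for genes of single steps. From each list of other genes, up to 3 with the smallest adjusted p against control are named. Promoter windows came from RefSeq and exon overlaps from GENCODE release 44.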

Additional observations from a re-analysis of the deposited data

Results flagged for a closer look

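For PKLR and PDK2 the change against control had opposite directions in the clones, past the test in each, and the direct comparison of the clones also passed. PKLR was higher in Ako-3 and lower in Mko-3 cells, and Mko-3 differed from Ako-3 cells by a log2 fold change of -1.67. For PDK2 the same difference was -2.35. No gene was screened for a single library far from the others, since groups of 3 are too small for that.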

How the results depend on the processing

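Each gene that passed the test against control, or between the clones, kept its direction under every alternative that gave it a value. Some lost their call under another method. Between the clones PFKM also lost it with limma (adjusted p = 0.131), library totals (0.104), no filter (0.0986) and the joint fit (0.0912). With limma PFKFB1 (0.058) and PDK1 (0.0994) lost it as well. Against control, PGK1 lost it in Mko-3 cells with no filter (0.16) and ALDOC in Ako-3 cells with limma (0.0568). With at least 10 counts required in every library, SLC2A2 was not tested against control in either clone, nor FBP1 in Mko-3 cells. In Ako-3 cells the number differentially expressed fell from 5 to 3 under this filter, which leaves out SLC2A2 and puts PDK2 just under a log2 fold change of 1, and to 3 with limma on log2(FPKM + 1), and ranged from 3 to 5 when leaving out 1 library, with 3 without control 3. In Mko-3 cells it fell from 8 to 6 under this filter, without SLC2A2 and FBP1, and to 5 with limma, where the pseudocount reduces the change of low genes by construction, and ranged from 6 to 8 when leaving out 1 library. Signs turned only for values that had not passed. With library totals, ALDOA became -0.0925 and KHK -0.0081 in Ako-3 cells, and PFKL became -0.0276, ALDOA -0.0437 and GAPDH -0.0560 in Mko-3 cells. With at least 10 counts in every library ALDOA became -0.0074 in Ako-3 cells, and with no filter GAPDH became 0.0121 there. Leaving out 1 library, values against control ranged from -0.0960 to 0.0675 for ALDOA, -0.0353 to 0.0120 for GAPDH and -0.67 to 0.0197 for FBP1 in Ako-3 cells. In Mko-3 cells they ranged from -0.42 to 0.0322 for PFKFB1, -0.0919 to 0.12 for ALDOA, -0.0020 to 0.0395 for GAPDH and -0.0256 to 0.27 for ENO2. Between the clones they ranged from -0.0686 to 0.0006 for PFKFB4 and from -0.0967 to 0.11 for ALDOA. The causes of these turns were not tested. The replicate numbers shared between groups did not pair the libraries, as the correlation of deviations between same-numbered libraries ran from -0.21 to 0.17. With the replicate number as a block, 14 genes rose and 5 fell in Ako-3 cells, HK2 no longer passing (adjusted p = 0.0502), 12 rose and 10 fell in Mko-3 cells, and HK2 passed between the clones. Control libraries differed more from each other than clone libraries did. The chi-square of counts over genes, per degree of freedom, was 6.93 to 8.88 between control libraries, 3.12 to 3.45 in Ako-3 and 2.43 to 2.84 in Mko-3. Without control 2, the genes passing against control went from 7880 to 8346 in Ako-3 and from 8509 to 9043 in Mko-3 cells. Genes with few counts, such as FBP1 and SLC2A2 in control cells, are limited by depth.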
